A study of Rattus norvegicus with 9 samples.

Results

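The tight, gap and adherens junction genes described here are 9 genes chosen by symbol, namely the claudins Cldn1, Cldn2 and Cldn3, occludin (Ocln), zonula occludens-1 (Tjp1), the connexins Gjb1 (connexin 32) and Gja1 (connexin 43), E-cadherin (Cdh1) and N-cadherin (Cdh2). Each was found once among the 32883 genes of the deposited tables, and all 9 were among the 14089 genes with enough reads to be tested. RNA of whole liver tissue was sequenced in 9 male Sprague-Dawley rats, with 3 rats in each group and 1 liver per rat. The rats were 8 to 11 weeks old when obtained. Their age when the livers were taken is not given in the sources used here, so whether the groups matched in age is not known. Normal livers came from rats without liver failure. Rats of the Empty and UTOpiA groups both had acute-on-chronic liver failure (ACLF), produced by ligating and cutting the common bile duct 21 days before intraperitoneal lipopolysaccharide (LPS) at 0.25 mg/kg. Both of these groups were connected to an extracorporeal blood circuit under isoflurane with heparin 1 h after LPS for 2 h, and their livers were taken 24 h after LPS. The circuit of the Empty group held no cells and no adsorbent. That of the UTOpiA group held a granulocyte-monocyte apheresis (GMA) column followed by alginate capsules of hepatocyte-like cells made from gene-edited human induced pluripotent stem cells. As the study describes it, the ACLF livers came from rats that were alive at the time of sampling and were picked at random, so rats that had died earlier are not represented. Normal rats had neither ligation, LPS nor circuit, so the parts these played cannot be told apart in a comparison with Normal.

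Cell junctions hold neighbouring liver cells together and close the bile canaliculus off from the blood. Tight junctions are strands of claudins and occludin, tied to actin through scaffold proteins such as ZO-1. Cldn1 and Cldn3 are regarded as sealing claudins, whereas Cldn2 forms a channel for small cations and water. Gap junctions are channels of connexins that let ions and small metabolites pass between cells. Connexin 32 is the main connexin of hepatocytes, and connexin 43 is typical of non-parenchymal liver cells. Adherens junctions are built from cadherins bound to catenins, and the hepatocyte is unusual among epithelial cells in carrying both E-cadherin and N-cadherin.

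The 250 bases before the annotated start are shown for both connexins, whose transcripts lay apart from Normal in opposite directions, and for Ocln, the tight junction member that was called in both ACLF groups. All are given 5′ to 3′ on the gene's strand, from RefSeq on the assembly GRCr8, which held an entry for 6 of the 9 members. Capitals mark matches on either strand to the motifs searched.
Gja1, chr20:36302314-36302563, + strand: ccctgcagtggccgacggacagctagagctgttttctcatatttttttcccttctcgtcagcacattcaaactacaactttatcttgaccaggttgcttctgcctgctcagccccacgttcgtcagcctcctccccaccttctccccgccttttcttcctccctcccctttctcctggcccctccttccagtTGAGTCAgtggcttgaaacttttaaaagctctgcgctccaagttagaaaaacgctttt
Gjb1, chrX:70541595-70541844, + strand: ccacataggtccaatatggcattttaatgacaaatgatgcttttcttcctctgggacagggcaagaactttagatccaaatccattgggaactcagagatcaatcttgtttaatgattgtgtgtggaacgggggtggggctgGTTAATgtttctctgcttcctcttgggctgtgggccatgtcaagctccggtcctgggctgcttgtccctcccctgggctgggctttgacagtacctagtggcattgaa
Ocln, chr2:33441199-33441448, - strand: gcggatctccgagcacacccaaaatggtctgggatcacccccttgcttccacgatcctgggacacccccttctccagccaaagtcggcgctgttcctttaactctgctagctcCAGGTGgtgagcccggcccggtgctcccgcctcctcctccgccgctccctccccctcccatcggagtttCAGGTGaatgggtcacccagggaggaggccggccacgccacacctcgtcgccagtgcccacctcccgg
The motifs searched were the AP-1 site TGANTCA, the GC box GGGCGG, the HNF1-type motif GTTAAT, the NF-kB site GGANTTTCC and the Snail-type E-box CAGGTG. None of these overlapped another in the sequences shown. Gja1 held 1 AP-1 match, beginning 58 bases before the start, and no match to the other motifs. An AP-1 match was present in 6.34% of 33469 RefSeq promoter windows of the same length. Gjb1 held 1 HNF1-type match, beginning 108 bases before its start, and this motif was found in 6.45% of windows. Ocln held 2 E-boxes, beginning 137 and 68 bases before its start, and 15.9% of windows held at least 1. GC boxes were found in 30.5% and NF-kB sites in 1.08% of all windows. The other members with an entry were searched too. Tjp1 also held 1 HNF1-type match, beginning 149 bases before its start. Cldn3 held 1 E-box (248 bases before) and 1 GC box (16), and Cldn1 held 2 GC boxes (64 and 36). A match is a string of letters and does not show that a factor binds there. GC made up 51.2% of the bases shown for Gja1, 49.2% for Gjb1 and 66.4% for Ocln.

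The libraries held 14241172 to 17321677 counted reads. Levels per liver are given below as read counts relative to library size after trimmed mean of M values (TMM) scaling (normalised CPM), on which the fold changes are also based. Levels between genes are given as TPM, a transcript abundance that accounts for gene length and has the same total in every library. A gene was called in a comparison at an adjusted p under 0.05 by edgeR's quasi-likelihood test with Benjamini-Hochberg adjustment over 14089 genes and a fold change above 2. Counts of livers of a group differed by more than counting noise, as separate rats do. The closest pair, Normal 1 and Normal 3, had a chi-square per degree of freedom of 17.6. The Empty 2 liver stood apart, with values of 212 and 164 against Empty 1 and Empty 3, which differed from each other by 43.8, and the pairs of UTOpiA livers by 69.9 to 94.1. The labelled tissue was matched by its markers, as all 10 hepatocyte markers were detected in every group. Their summed level was 171284 to 188178 TPM in Normal, 45488 to 82517 in Empty and 53459 to 80155 in UTOpiA livers, and 5 of the 10 were called lower in Empty than in Normal livers. Cholangiocyte markers summed to 26.0 to 36.3 TPM in Normal, 340 to 698 in Empty and 148 to 447 in UTOpiA livers, with 8 of 9 tested markers called higher in Empty than in Normal livers. In bulk tissue, fewer cells of a type and less RNA per cell cannot be told apart.

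In ACLF livers of the Empty group, the connexin pair moved in opposite directions, occludin rose, and the cadherins and the other tight junction members changed less or varied more between livers. Of the 9 members, 2 were called higher in Empty than in Normal livers (Gja1 and Ocln), where 20.7% of all genes tested were called higher. Gjb1 was the 1 member called lower, where 11.1% of all genes were. The livers of both groups did not overlap for 6 of the 9 members, and for 61.1% of all genes, so separation as such was common. The members had a median log2 fold change of 0.61, beside 0.04 over all genes. Without Empty 2 the calls were again 2 higher and 1 lower.

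**Figure D1:**
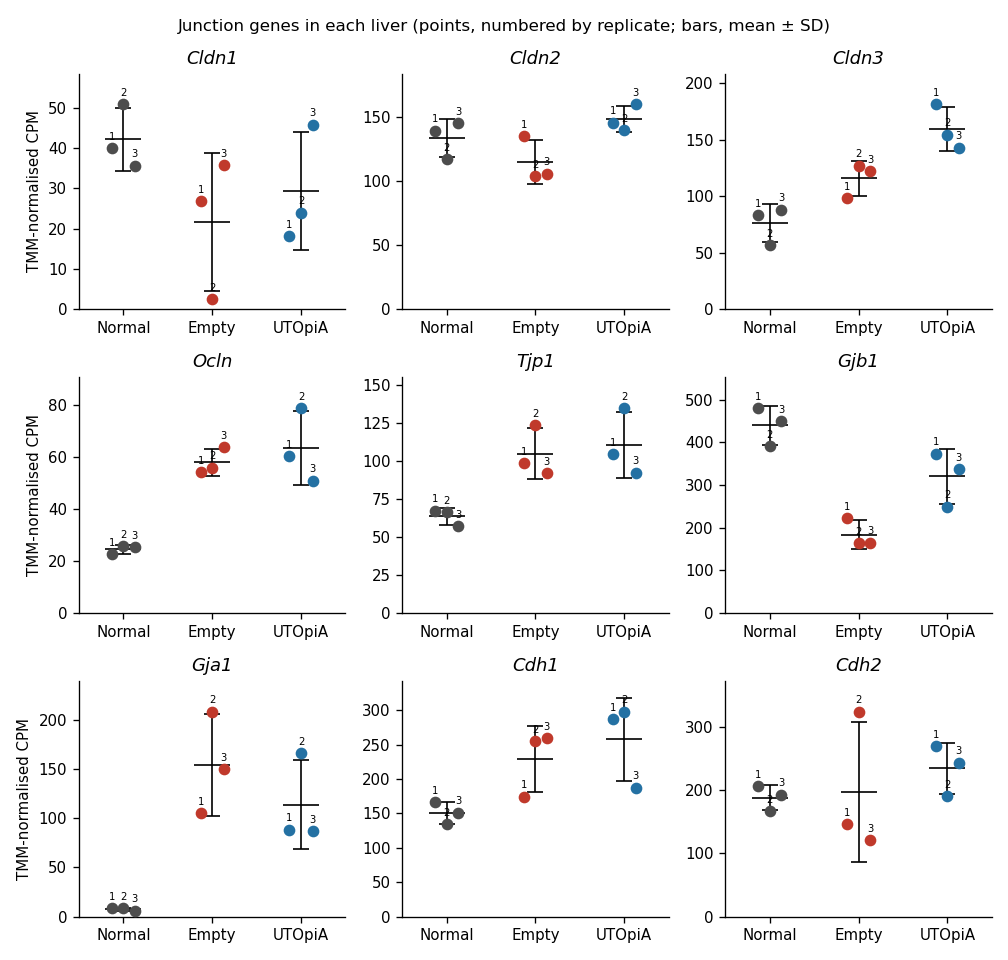
TMM-normalised CPM (vertical axes, each from 0) of the 9 members in each of the 9 livers, by group, with points numbered by replicate and bars showing the mean ± SD of 3 livers. Gja1 lay at 5.90 to 8.33 in Normal and 105 to 208 in Empty livers, and Empty 2 was lowest for Cldn1 and highest for Cdh2.

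Among the gap junction genes, Gja1 had the largest fold change of the 9 members. Gja1, on chromosome 20 at 37876650 to 37889089 of the rat build rn6 (+ strand), encodes connexin 43. It measured 8.31, 8.33 and 5.90 normalised CPM in Normal livers, 105, 208 and 150 in Empty livers, and 88.3, 166 and 86.9 in UTOpiA livers. Every ACLF liver lay above every Normal liver, and the Empty and UTOpiA livers overlapped. For Empty versus Normal, its log2 fold change was 4.36 ± 0.37 (SE), or 20.5-fold, with an edgeR adjusted p of 7.3e-05. Without Empty 2 the call held, and leaving out single livers gave log2 fold changes of 4.08 to 4.57.

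Gjb1, on chromosome X at 71272042 to 71279977 (+ strand), encodes connexin 32. It measured 480, 391 and 449 normalised CPM in Normal livers, 222, 164 and 165 in Empty livers, and 373, 249 and 337 in UTOpiA livers. On this scale the 3 groups did not overlap, with UTOpiA livers between the others, whereas in TPM the UTOpiA livers (287 to 403) overlapped the Normal livers (336 to 405). Gjb1 was lower in Empty than in Normal livers, with a log2 fold change of -1.26 ± 0.22 (edgeR adjusted p = 0.0017), or 0.418 of the Normal level. The size of this fold rested on the scaling of the libraries, since on library sizes alone it was -0.71 (adjusted p = 0.012) and by limma on log2(TPM + 1) -0.75 (adjusted p = 0.0083), and it no longer passed 2-fold in either.

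Because a ratio within a liver does not depend on scaling, the TPM of Gja1 was also set against that of Gjb1 in each liver. The ratio was 0.00962, 0.0118 and 0.00739 in Normal livers, 0.256, 0.688 and 0.491 in Empty livers, and 0.128, 0.361 and 0.140 in UTOpiA livers. Gjb1 was the more abundant transcript of the pair in every liver. The ratio was 46.9-fold higher in Empty than in Normal livers (log2 difference 5.55, n = 3 and 3), and the groups did not overlap. The two-sided exact permutation test gave p = 0.1, the smallest it can give with 3 against 3, and 0.4 after adjustment over the 8 ratio tests. Between UTOpiA and Empty livers the log2 difference was -1.25 (exact permutation p = 0.2), and the groups overlapped.

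**Figure D2:**
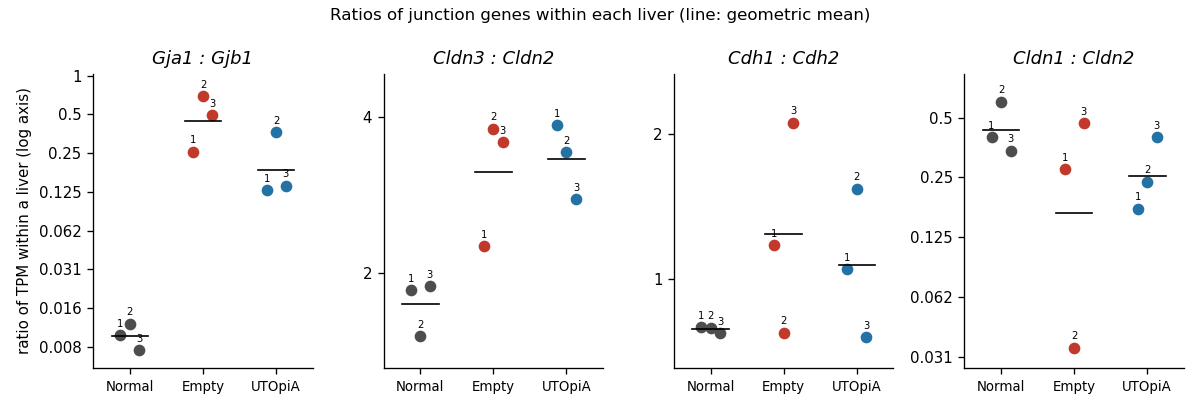
Ratio of TPM between a pair of members within each liver (vertical log axes), by group, with points numbered by replicate and lines at the geometric mean. The Gja1 to Gjb1 ratio was 0.00739 to 0.0118 in Normal and 0.256 to 0.688 in Empty livers, and Empty 2 had a Cldn1 to Cldn2 ratio of 0.0349.

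Among all 19 connexin genes of the table, Gjb1 made up 93.1% to 95.7% of the summed TPM in Normal livers, 43.5% to 62.1% in Empty livers and 62.5% to 75.7% in UTOpiA livers. Gja1 made up 0.682% to 1.07%, 15.9% to 29.9% and 9.66% to 22.6% in the same order. The summed connexin TPM itself was 361 to 429 in Normal, 407 to 451 in Empty and 380 to 535 in UTOpiA livers. The groups overlapped in this total but not in the share of Gjb1. Such shares describe transcripts per length and sum to 100%, so a rise of one gene lowers the others.

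The tight junction members did not move as one. Ocln, on chromosome 2 at 30527715 to 30577218 (- strand), is a membrane protein of the strands. It measured 22.5, 25.7 and 25.3 normalised CPM in Normal livers, 54.1, 55.7 and 63.7 in Empty livers, and 60.2, 78.7 and 50.8 in UTOpiA livers. All ACLF livers lay above all Normal livers. Empty and Normal livers differed by a log2 fold change of 1.24 ± 0.17 (edgeR adjusted p = 0.0005), or 2.36-fold.

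Tjp1, on chromosome 1 at 126146489 to 126227469 (- strand), encodes the scaffold ZO-1 that links strands to actin. Its normalised CPM was 67.1, 66.4 and 56.9 in Normal livers, 98.6, 124 and 92.0 in Empty livers, and 104, 135 and 92.1 in UTOpiA livers. The Empty livers were above the Normal livers, by a log2 fold change of 0.72 ± 0.18 (edgeR adjusted p = 0.0098), which was below 2-fold. Cldn3, on chromosome 12 at 21831342 to 21832813 (- strand), also lay higher in the Empty than in the Normal livers, with a smaller margin, and its UTOpiA livers lay above the Empty livers in normalised CPM. It measured 83.3, 57.1 and 88.3 in Normal livers, 98.3, 127 and 122 in Empty livers, and 182, 155 and 143 in UTOpiA livers. Its log2 fold change, Empty versus Normal, was 0.61 ± 0.20 (edgeR adjusted p = 0.031), again below 2-fold. It did not pass the test without Normal 1 (adjusted p = 0.058), Normal 2 (0.43, adjusted p = 0.12), Empty 2 (0.53, adjusted p = 0.070) or Empty 3 (adjusted p = 0.082). On library sizes alone, both genes passed 2-fold, at 1.27 for Tjp1 and 1.17 for Cldn3.

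Cldn2, on chromosome X at 111122552 to 111137769 (+ strand), differed little. It measured 139, 117 and 145 normalised CPM in Normal livers, 135, 104 and 106 in Empty livers, and 146, 140 and 160 in UTOpiA livers. Its log2 fold change, Empty versus Normal, was -0.22 ± 0.16 (95% interval -0.59 to 0.15, edgeR adjusted p = 0.29), and it was 0.33 on library sizes alone, so no direction is given. Within livers, the Cldn3 to Cldn2 ratio of TPM was 1.85, 1.51 and 1.88 in Normal, 2.25, 3.80 and 3.58 in Empty and 3.86, 3.42 and 2.77 in UTOpiA livers. The ratio was 1.80-fold higher in Empty than in Normal livers, whose values did not overlap (exact permutation p = 0.1, adjusted 0.4).

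Cldn1, on chromosome 11 at 77815181 to 77830416 (+ strand), had the widest interval of the 9 members. It measured 39.99, 50.8 and 35.7 normalised CPM in Normal livers, 26.8, 2.47 and 35.7 in Empty livers, and 18.2, 23.99 and 45.8 in UTOpiA livers. The single low value was that of Empty 2, with 46 counts. Between Empty and Normal livers the log2 fold change was -0.96 ± 0.74 (edgeR adjusted p = 0.31), and its 95% interval of -2.63 to 0.71 allows a fall or a rise. Without Empty 2 it was -0.43.

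The claudins together summed to 160 to 193 TPM in Normal, 312 to 521 in Empty and 288 to 538 in UTOpiA livers. Cldn3 kept a similar share of this sum, at 35.3% to 44.2% in Normal and 35.3% to 46.1% in Empty livers. The share of Cldn2 was 23.3% to 23.9% in Normal and 9.87% to 18.3% in Empty livers, and that of Cldn1 was 7.92% to 14.04% and 0.398% to 5.03%. In UTOpiA livers the shares were 42.0% to 53.6% for Cldn3, 12.3% to 17.6% for Cldn2 and 2.40% to 6.95% for Cldn1.

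**Figure D3:**
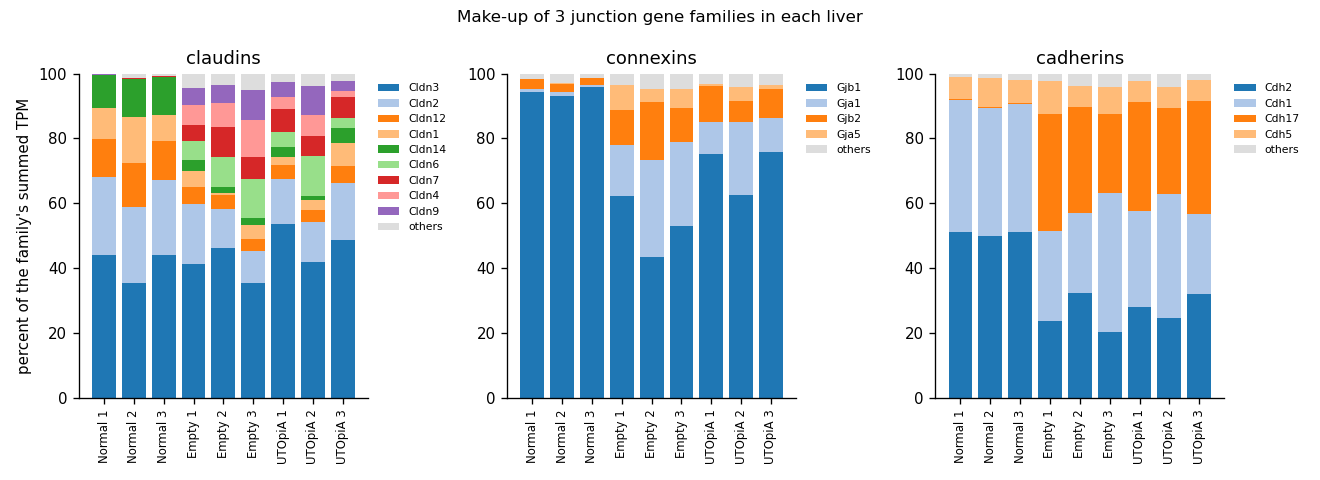
Percent of the summed TPM of all claudins, connexins and cadherins (vertical axes) held by each gene in each of the 9 livers, with genes that never reached 5% pooled as others. Gjb1 fills 93.1% to 95.7% of the connexin bars in Normal livers, and Cdh17 appears in the cadherin bars of ACLF livers.

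The adherens junction members were not called by edgeR with TMM scaling. Cdh1, on chromosome 19 at 38768467 to 38838395 (+ strand), encodes E-cadherin. It measured 166, 134 and 151 normalised CPM in Normal livers, 174, 255 and 259 in Empty livers, and 287, 298 and 188 in UTOpiA livers. The Empty livers lay above the Normal livers, but the log2 fold change of 0.61 ± 0.24 did not pass the test (edgeR adjusted p = 0.057). It was called on library sizes alone (1.18, adjusted p = 0.0090) and by limma on log2(TPM + 1) (1.096, adjusted p = 0.017). By DESeq2 it was 0.62 with an adjusted p of 0.028, below 2-fold. By edgeR it also passed below 2-fold without Empty 1 (0.77, adjusted p = 0.030) or UTOpiA 3 (adjusted p = 0.034). Without any other single liver it did not (adjusted p of 0.052 to 0.18). It passed with upper quartile scaling (0.032), only the 6 libraries compared (0.035) and at least 10 counts in every library (0.036). Whether Cdh1 passed thus depended on the test, the scaling, the filter and single livers.

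Cdh2, on chromosome 18 at 8146971 to 8360684 (- strand), encodes N-cadherin. It measured 206, 167 and 193 normalised CPM in Normal livers, 146, 325 and 121 in Empty livers, and 270, 191 and 244 in UTOpiA livers. On this scale Empty 2 was above every Normal liver, and the other Empty livers were below them. In TPM, Empty 2 was again above, but Empty 1 (65.1) and Empty 3 (61.9) lay within the Normal range (55.9 to 67.9). For Empty versus Normal the log2 fold change was 0.07 ± 0.34 (edgeR adjusted p = 0.89), and -0.50 without Empty 2 (adjusted p = 0.075). It was 0.60 on library sizes alone (adjusted p = 0.13), so no direction is given. The Cdh1 to Cdh2 ratio of TPM was 0.797, 0.794 and 0.774 in Normal livers, 1.18, 0.776 and 2.11 in Empty livers, and 1.05, 1.54 and 0.758 in UTOpiA livers. Normal livers were nearly identical in this ratio and ACLF livers were spread on both sides of 1, with no separation of the groups (Empty versus Normal, exact permutation p = 0.3).

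Between genes, Gjb1 had the highest TPM in every group, at 372 ± 34.7 (SD, n = 3) in Normal, 222 ± 29.1 in Empty and 335 ± 60.4 in UTOpiA livers. In Normal livers it was followed by Cldn3 (74.0 ± 15.4), Cdh2 (62.2 ± 6.03), Cdh1 (49.1 ± 4.85), Cldn2 (42.0 ± 4.10), Cldn1 (18.3 ± 3.67), Tjp1 (13.2 ± 1.31), Ocln (8.15 ± 0.628) and Gja1 (3.45 ± 0.673). The livers overlapped between Cldn3 and Cdh2 and between Cdh1 and Cldn2 only. In Empty livers Gja1, last in Normal, had rank 4 at 102 ± 35.2 TPM, and its values overlapped those of its neighbours Cdh1 (108 ± 28.2) and Cdh2 (92.9 ± 50.9). Cldn1 was last there at 13.7 ± 11.4. In UTOpiA livers Gja1 had rank 5 at 68.6 ± 39.8 TPM, overlapping Cdh2 (96.5 ± 16.5) and Cldn2 (58.3 ± 7.66), and Cldn1 was again last at 15.2 ± 4.97.

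Between the ACLF groups, which addresses the effect of the treatment, none of the 9 members was called. This was so for all genes, since 0% were called higher and 0% lower by edgeR at an adjusted p under 0.05, while 1456 genes had an unadjusted p under 0.05. DESeq2 called 53 genes higher and 71 lower in UTOpiA than in Empty livers, none of them a member, and limma called 0. The study, which used DESeq2 with the same thresholds, reported more genes in each direction for this comparison. The count of 0 by edgeR rested on single livers, as 26 genes were called higher and 22 lower without Empty 2, 32 and 17 without UTOpiA 2, and 0 and 1 without Empty 3. At an unadjusted p under 0.05, 3 members differed. A positive log2 fold change was found for 8 of the 9 members and for 7071 of all 14089 genes, and the sign of those near 0 depended on the scaling, as given below.

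For Gjb1, all UTOpiA livers were above all Empty livers, as the values above show, with a log2 fold change of 0.80 ± 0.22, or 1.74-fold (unadjusted p = 0.0050, edgeR adjusted p = 0.35). DESeq2 gave 0.78 with an adjusted p of 0.024, below the 2-fold limit. Leaving out each liver in turn gave 0.66 to 0.96. Cldn3 (0.46 ± 0.20, edgeR adjusted p = 0.47) and Cldn2 (0.37 ± 0.16, adjusted p = 0.48) also did not overlap between the groups in normalised CPM. In TPM both overlapped, with Cldn3 at 129 to 184 in Empty and 140 to 226 in UTOpiA livers and Cldn2 at 46.1 to 57.3 and 50.6 to 65.9. On library sizes alone the log2 fold changes were 0.28 for Cldn3 and 0.18 for Cldn2. In normalised CPM such separation was found for 3 of 9 members and for 12.1% of all genes. In the edgeR fit of all libraries Gja1 was the only member with a negative value, -0.44 ± 0.32 (95% interval -1.15 to 0.27, edgeR adjusted p = 0.67), and leaving out single livers moved it from -0.81 (without UTOpiA 2) to -0.16 (without Empty 2).

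The remaining members differed by less than the spread between livers. The log2 fold change, UTOpiA versus Empty, was 0.43 for Cldn1 (95% interval -1.23 to 2.10), 0.25 for Cdh2 (-0.51 to 1.01) and 0.17 for Cdh1 (-0.36 to 0.69). For Ocln it was 0.13 (-0.25 to 0.50) and for Tjp1 0.08 (-0.33 to 0.49), so changes above 2-fold lie outside the intervals of these last genes. The values of Ocln, Tjp1 and Cdh1 were negative under limma on log2(TPM + 1), a fit that differs in scale, test and filter. On library sizes alone Cdh1 was at 0.0081, and Ocln and Tjp1 were at -0.026 and -0.066. UTOpiA 2 had the highest Ocln, Tjp1 and Gja1 of its group. It also had the highest summed TPM of cholangiocyte (447), stellate and fibroblast (1057), macrophage (1714), neutrophil (521), lymphocyte (97.2) and mesothelial (4151) markers and the lowest of hepatocyte markers (53459). Its endothelial (142), erythroid (729) and proliferation (42.8) markers were not the highest of the group. The part of these cells in the values was not tested.

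**Figure D4:**
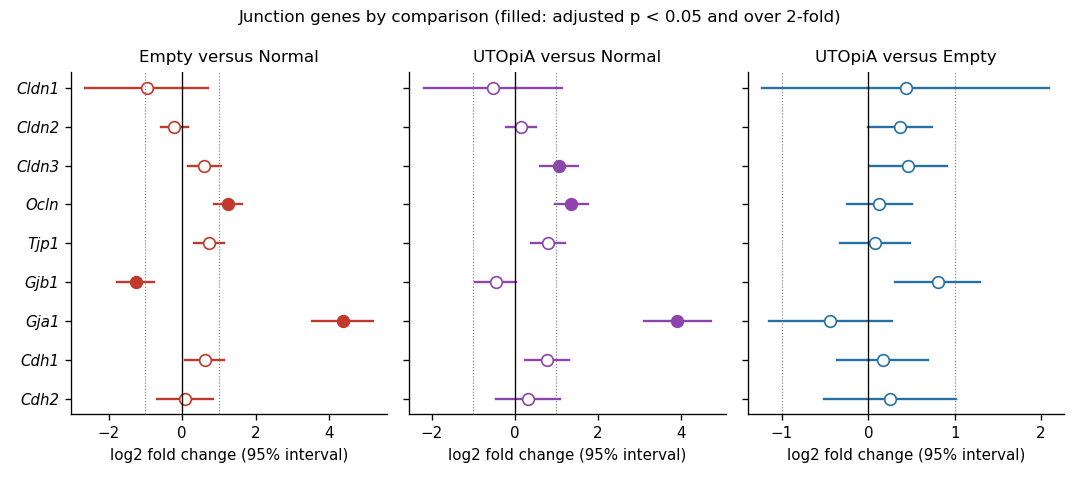
log2 fold change of the 9 members (points) with 95% intervals (lines) from edgeR in 3 comparisons, filled where called, with dotted lines at 2-fold. Gja1, Ocln and Gjb1 are filled for Empty versus Normal, Gja1, Ocln and Cldn3 for UTOpiA versus Normal, and none for UTOpiA versus Empty.

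UTOpiA livers were also set against Normal livers, a comparison that shares the Normal livers with the first and the UTOpiA livers with the second. Gja1 (3.92 ± 0.36, edgeR adjusted p = 0.00014), Ocln (1.37 ± 0.17, adjusted p = 0.00049) and Cldn3 (1.07 ± 0.20, adjusted p = 0.0032) were called higher, and 18.2% of all genes were. No member was called lower, beside 6.81% of all genes, and 6 of 9 members did not overlap, beside 56.9%. Cldn3 was close to the fold limit, and fell below it without Normal 2 (0.89) or without UTOpiA 1 (0.96). Tjp1 (0.80, adjusted p = 0.0082) and Cdh1 (0.77, adjusted p = 0.027) passed the test of edgeR below 2-fold. Cdh1 did not pass without any 1 of the Normal livers, without UTOpiA 1 or without UTOpiA 2 (adjusted p of 0.056 to 0.10). Gjb1 had a log2 fold change of -0.46 ± 0.22 (adjusted p = 0.12), with all UTOpiA livers below all Normal livers in normalised CPM but not in TPM, and it was -0.11 on library sizes alone. Whether its difference from Normal was smaller than in the Empty group is the UTOpiA versus Empty comparison above, which it did not pass.

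The scaling of the libraries bore on all of these values. The albumin gene alone accounted for 13.3% to 14.9% of the reads of a Normal library, and for 1.54% to 3.91% of those of an ACLF library. Without TMM scaling, the median log2 fold change of all genes moved from 0.04 to 0.60 for Empty versus Normal, from 0.05 to 0.42 for UTOpiA versus Normal and from 0.0012 to -0.18 for UTOpiA versus Empty. Of all calls for Empty versus Normal, 65.1% were higher with TMM scaling (2916 higher, 1560 lower) and 86.8% without it (4477 higher, 682 lower). For UTOpiA versus Normal the shares were 72.8% and 87.6%. Relative to the median gene of each of 7 fits that differed in scaling or test, Gja1 lay 4.04 to 4.31 higher, Ocln 1.196 to 1.247 higher, Tjp1 0.67 to 0.74 higher and Cldn3 0.56 to 0.69 higher in Empty than in Normal livers. Gjb1 lay at -1.31 to -1.19 relative to the median gene in each of them.

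Other genes of these junctions were taken from 7 lists, with 130 of 134 listed genes in the table and 88 tested. In Empty compared with Normal livers, 36 were called higher and 7 lower, with a median log2 fold change of 0.66, and 32 and 10 of 90 without Empty 2. Of all genes tested, 20.7% were called higher and 11.1% lower, shares that stand beside the counts of each list below. Genes at 0 in every Normal liver were tested because of their reads in ACLF livers. With library sizes only, 46 of the 88 were called higher and 2 lower, beside 4477 and 682 of all 14089 genes. Among tight junction strand and membrane proteins, 10 of 21 were called higher and 1 lower (median 0.88). The claudins with the largest changes were nearly silent in Normal livers. Cldn9 had 1, 0 and 1 counts in Normal livers and 240, 278 and 644 in Empty livers, a ratio of 356 (95% interval 98.3 to 2943, counting error only). Cldn6 had 2, 2 and 3 counts against 288, 496 and 923, a ratio of 149 (72.4 to 372). Cldn4, a claudin of ducts and other epithelia, went from 0.171 ± 0.155 to 30.1 ± 15.8 normalised CPM (SD, n = 3; log2 fold change 7.43, edgeR adjusted p = 0.00029). Cldn14 was the 1 gene of this list called lower, from 19.8 ± 2.46 to 6.28 ± 1.24 normalised CPM (-1.65, adjusted p = 0.0049).

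Of 19 scaffold and polarity genes tested, 3 were called higher and 2 lower (median 0.17), near the shares of all genes called (20.7% and 11.1%). The polarity proteins Pard6a (log2 fold change 1.79) and Pard6b (1.62) and the scaffold Magi3 (1.34) rose, while the scaffold Mpdz (-1.81) and cingulin, Cgn (-1.47), fell, with edgeR adjusted p of 0.00014 to 0.046. Magi3 was not called without Empty 2. Pard6a was not called without Empty 2, Empty 3, UTOpiA 2 or any 1 of the Normal livers, and its mean TPM was under the minimum of 1 for the test by limma. Cgn was not called by limma or on library sizes alone. Of 9 other connexins and pannexins, 5 were called higher and 1 lower (median 1.72). Gja5 (connexin 40, of arterial endothelium) went from 0.661 ± 0.577 to 36.6 ± 10.3 normalised CPM, a log2 fold change of 5.77 (edgeR adjusted p = 0.00087), and measured 5.27, 32.6 and 11.4 in UTOpiA livers. Gjb2 (connexin 26), another connexin of hepatocytes, rose from 17.6 ± 3.29 to 65.7 ± 26.2, or 3.72-fold (edgeR adjusted p = 0.0023), opposite to Gjb1. Gjc3 fell (-1.38, edgeR adjusted p = 0.035), a call that was lost without Empty 2, Empty 3, Normal 1 or Normal 2, by limma and on library sizes alone.

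Of 7 other cadherins, 5 were called higher and none lower. Their median was 2.66, or 1.89 with Cdh6, at 0 in every Normal liver, set to its lower bound. Cdh17, the liver-intestine cadherin, had 2, 4 and 5 counts in Normal livers and 3574, 5063 and 2487 in Empty livers. Its normalised CPM in UTOpiA livers, 269, 169 and 219, overlapped that of Empty livers (185, 272 and 119). Relative to Normal livers, the log2 fold change in Empty livers was 9.26 ± 0.47 (edgeR adjusted p = 2.1e-05), and its TPM of 109 ± 40.6 in Empty livers was close to that of Cdh1 (108 ± 28.2). Cdh3 (P-cadherin, 5.01) and Cdh11 (a mesenchymal cadherin, 2.66) also rose. Of the summed TPM of all 22 cadherins, Cdh2 held 49.9% to 51.2% and Cdh1 39.6% to 40.8% in Normal livers. In Empty livers these shares were 20.3% to 32.2% and 24.96% to 42.9%.

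**Figure D5:**
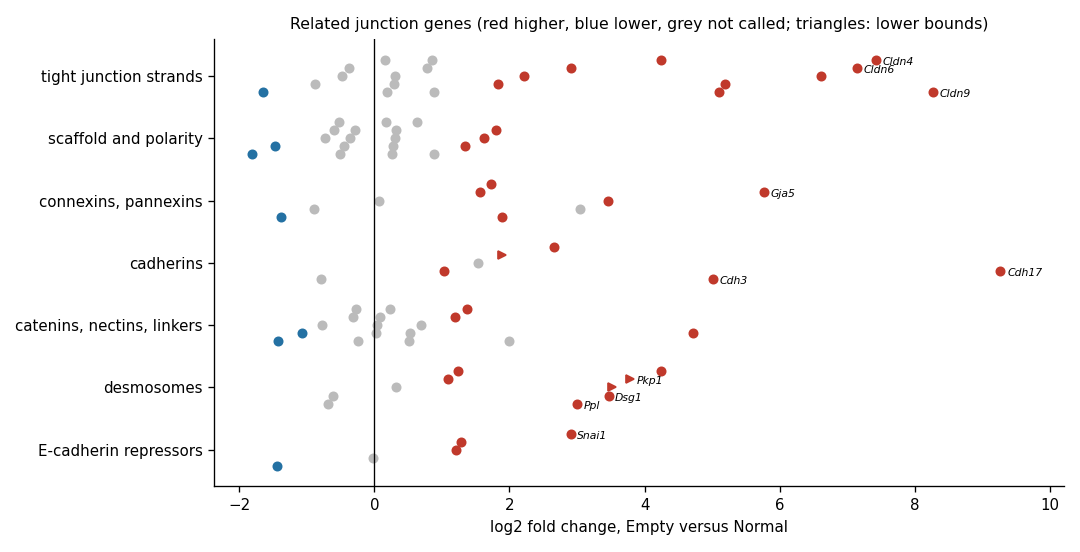
log2 fold change, Empty versus Normal (horizontal axis), of the 88 related junction genes tested, by list, with genes called higher in red, called lower in blue and not called in grey. Triangles mark the lower bound for 3 genes at 0 in every Normal liver, and Cdh17 lies furthest to the right at 9.26.

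Catenins, nectins and linkers of adherens junctions had the list median nearest to 0, with 3 of 17 called higher and 2 lower (median 0.09), also near the shares of all genes. The actin-binding linkers Zyx (1.38) and Actn1 (1.19) rose, and the nectins Nectin1 (-1.43) and Nectin3 (-1.07) fell, with edgeR adjusted p of 0.00069 to 0.0064. Neither nectin was called by limma or on library sizes alone, nor was Nectin3 without Empty 1 or Empty 3. The catenins Ctnnb1, Ctnna1 and Ctnnd1 had log2 fold changes of 0.09, 0.52 and 0.51 and were not called. They are named here after their values were seen. On library sizes alone Ctnna1 and Ctnnd1 were called higher, as was Ctnnd1 by limma. Of 10 desmosomal genes, 7 were called higher and none lower (median 2.11, with or without the genes at 0 set to their bound). Pkp1 was at 0 counts in every Normal liver and at 3.45 ± 1.54 normalised CPM in Empty livers, at least 13.8-fold higher against 3 counts per library. Dsg1 (3.46, adjusted p = 0.0037) and Ppl (3.00, adjusted p = 0.0032) rose as well. Of 5 transcriptional repressors of E-cadherin tested, Snai1 (2.90, adjusted p = 0.00068), Tcf4 (1.28, adjusted p = 0.018) and Zeb2 (1.21, adjusted p = 0.0069) rose and Snai2 fell (-1.45, adjusted p = 0.015). Tcf4 was not called without Normal 1, Normal 3 or Empty 1, Zeb2 not without Empty 1, and Snai2 not without Normal 3, by limma or on library sizes alone. Cdh1 was not lower in either ACLF group, as its values above show.

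None of the 88 related genes was called between UTOpiA and Empty livers, and 4 had an unadjusted p under 0.05 (DESeq2 called 0 of them). Their median log2 fold change there was -0.00023, beside 0.0012 over all genes. In UTOpiA compared with Normal livers, 34 of the 88 were called higher and 4 lower, where 18.2% and 6.81% of all genes were.

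Markers of several other cell types also differed between Empty and Normal livers. Beside the cholangiocyte list, markers called higher in Empty than in Normal livers were 5 of 5 mesothelial, 7 of 9 stellate and fibroblast, 7 of 7 neutrophil, 6 of 10 macrophage, 4 of 8 lymphocyte, 5 of 6 erythroid and 8 of 10 proliferation markers, and 1 of 9 endothelial markers. In the same comparison 1 erythroid and 1 endothelial marker were called lower, and the endothelial list had a median log2 fold change of -0.22. Mesothelial markers, which include the keratins Krt8 and Krt18 of many epithelia, summed to 423 to 555 TPM in Normal, 1766 to 4709 in Empty and 2221 to 4151 in UTOpiA livers. Stellate and fibroblast markers summed to 105 to 116, 864 to 1060 and 450 to 1057 TPM, and neutrophil markers to 3.20 to 6.25, 191 to 1128 and 180 to 521 TPM, in the same order. Macrophage markers summed to 317 to 374, 1029 to 1710 and 545 to 1714 TPM and endothelial markers to 115 to 130, 123 to 206 and 142 to 162 TPM. Lymphocyte markers summed to 13.8 to 15.8, 61.2 to 97.6 and 31.9 to 97.2 TPM, erythroid markers to 95.6 to 265, 2179 to 3218 and 729 to 1194 TPM, and proliferation markers to 5.31 to 15.9, 27.6 to 62.7 and 26.1 to 63.4 TPM. Cxcr2, Fpr1, Fpr2, Mpo, Cd3d and Ahsp were at 0 counts in Normal livers, and every marker found was detected in both ACLF groups. The part of these cells in the changes of Gja1, Ocln and the related genes was not tested.

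The genes whose pattern over the 9 livers was most like that of each member were taken from 12312 protein-coding genes by the smallest root mean square (RMS) difference of log2(TPM + 1), centred on each gene's mean. For Gjb1 these were Selenop (RMS 0.115), which encodes the selenium carrier that the liver secretes, and Skida1 (0.128). For Gja1 they were Tnfrsf12a (0.211), the receptor of the cytokine TWEAK, and Bicc1 (0.239), beside a spread of Gja1 itself of 2.03. Ocln was closest to Plekha2 and Unc13d, Tjp1 to Bicd2 and the kinase Rock2, Cdh1 to Lasp1 and Gemin8, Cdh2 to Ska3 and the urea cycle enzyme Asl, Cldn3 to Tmem184a and Stap1, and Cldn2 to Zfp287 and Taf10. Cldn1 had no close match, and Bhlha15 differed from it by 0.495 against a spread of 0.951. Some of these genes lay near 0, where adding 1 to the TPM shrinks their differences. Stap1 averaged 0.0291 TPM in Normal, 1.28 in Empty and 1.93 in UTOpiA livers, beside 74.0, 163 and 197 for Cldn3. Low Normal means were also found for Unc13d (0.515 TPM), Ska3 (0.605) and Skida1 (1.70), among others. The 9 points share 3 groups and their library depth, so likeness is a description only.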

How the data were processed

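RNA-seq of 9 rat livers was analysed, 3 per group, grouped by their labels; replicates were separate rats. The authors deposited raw read counts per gene, as whole numbers, and TPM, scaled by gene length. The labels' processing notes name Trimmomatic, HISAT2, featureCounts and the build rn6, whereas the methods name Cutadapt and a mouse build, and kits differ likewise; both kits are directional, but whether counting used strand is not given in the sources used here. The tables list rat Ensembl genes, and no member overlapped another listed gene.

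Counts were filtered with filterByExpr, TMM-normalised and fitted with edgeR 4.0.16 (quasi-likelihood, robust, two-sided, all 9 libraries) in R 4.3.3, after tests on simulated data. DESeq2 1.42.0, limma 3.58.1 on log2(TPM + 1) or log2(TPM + 0.1), for genes whose TPM averaged 1 or more, other scalings and filters, and each library left out were alternatives. Ratios used TPM + 0.1. Intervals on counts cover counting error only. Related genes named were the up to 3 with the largest changes per list and direction among called genes with a mean TPM of at least 1 in a group; likeness used the 2 closest genes. Some items that these rules name, and some details of the circuit's cells, are not reported here. The members and lists were chosen with earlier results of these data known.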

Additional observations from a re-analysis of the deposited data

How the results depend on the processing

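The count of members called was 3 for Empty versus Normal and 3 for UTOpiA versus Normal, and became 5 and 5 with limma on log2(TPM + 1), with limma on log2(TPM + 0.1), with library sizes only and with no fold threshold. In the first 3 of these, Gjb1 lost its call for Empty versus Normal and Cdh1, Cldn3 and Tjp1 were called higher beside Gja1 and Ocln; with no fold threshold, Cldn3 and Tjp1 joined and Gjb1 was still called lower. DESeq2, the other scalings and count filters, and fits of only the 6 libraries compared gave 3 and 3. Leaving out each library gave 3 for Empty versus Normal and 2 to 3 for UTOpiA versus Normal. No alternative called a member between UTOpiA and Empty livers. Related genes called fell from 43 to 20 and from 38 to 16 when at least 10 counts were asked of every library, a filter that keeps 62 of 88 and drops genes near 0 in Normal livers. For Empty versus Normal, 14 of the 62 were then called higher and 6 lower, beside 1644 and 1179 of 11342 genes. For UTOpiA versus Normal the counts were 13 and 3, beside 1384 and 701 of all genes. Cldn2, Empty versus Normal, was 0.29 under both limma fits and 0.33 with library sizes only. For UTOpiA versus Empty under limma on log2(TPM + 1), limma on log2(TPM + 0.1) and library sizes only, Ocln was -0.090, -0.096 and -0.026 and Tjp1 -0.13, -0.13 and -0.066, and Cdh1 was -0.045 and -0.046 under the limma fits. With each library left out, the log2 value ran from -0.50 to 0.32 for Cdh2, Empty versus Normal, and for UTOpiA versus Empty from -0.093 to 1.00 for Cldn1, -0.057 to 0.26 for Ocln, -0.089 to 0.21 for Tjp1 and -0.0021 to 0.82 for Cdh2. Ratios between UTOpiA and Empty ran from -0.56 to 0.16 (Cdh1 to Cdh2), -0.50 to 1.37 (Cldn1 to Cldn2, negative without Empty 2) and -0.15 to 0.23 (Cldn3 to Cldn2). The causes were not tested.

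Replicate numbers did not pair the livers, since same-numbered livers of the Empty and UTOpiA groups had correlations of -0.14, -0.18 and -0.15. With the replicate number as a block the counts of members called were 3, 0 and 3, and Cdh2, Empty versus Normal, was -0.0013. Related genes called for Empty versus Normal fell from 43 to 38 under this block, with Cldn23, Dsc2, Dsp, Pard6a and Gjc3 no longer called. Cldn3, Empty versus Normal, then had an edgeR adjusted p of 0.056, and Cdh1, UTOpiA versus Normal, one of 0.062. With 3 livers per group, only the spread between these livers bears on the p-values. Depth limits the genes near 0 in Normal livers, whose folds rest on a few counts.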
